A study of Arabidopsis thaliana with 9 samples.

Results

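Self-pollinated flowers of stage 14 were compared with floral buds of stage 11 to 12 in Arabidopsis thaliana. The comparison holds 6 of the 9 arrays of the study, the 3 titled in vivo and the 3 titled Bud, chosen by their titles alone. All 22746 probe sets other than the array's controls were compared. All 6 came from plants of the LAT52-HF-RPL18 transgenic line, which make a tagged copy of ribosomal protein L18 from LAT52, a promoter active in late pollen, and grew in a chamber at 22 °C under days of 18 h. The study's design text calls the bud samples unpollinated styles, while their labels name floral buds, and the labels give the in vivo samples as buds of stage 14. There was no group without the transgene and none in which pollination and floral stage differed separately, so these cannot be told apart here. Each array measured mRNA of polysomes from a sucrose gradient, pulled down through the FLAG tag of the transgene and amplified linearly. The remaining 3 arrays, from pollen tubes cultured in vitro, were not part of the contrast and serve only to describe levels. The labels call the 3 arrays of each group biological replicates.

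The tapetum is the innermost wall layer of the anther. It feeds developing pollen, supplies its outer wall and coat, and breaks down before the anther opens. After pollen lands on the stigma, its vegetative cell grows a tube through the pistil. The growing tip is held together by secreted wall proteins such as the leucine-rich repeat extensins (LRX), by receptor kinases of the ANX and BUPS type and by the RALF-like peptides they bind. Open flowers also make nectar, carried out of nectary cells by the sugar carrier SWEET9, and scent compounds.

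Values were MAS5 signals, which are linear and scaled on each array to one overall level. The median signal over all probe sets was 175 to 196 on the bud arrays and 174 to 187 on the in vivo arrays. On the in vitro arrays it was only 68.6 to 111.5 at the same scaling. Levels in vitro set against the other arrays are therefore descriptions only. Differences are given as log2 folds of signal plus 16, in vivo minus bud, with the standard error (SE) of a limma fit to the 6 arrays, and a difference was called at an adjusted p under 0.05 over all 22746 probe sets. Log2 values of arrays correlated at 0.940 to 0.965 within bud, 0.947 to 0.970 within in vivo and 0.890 to 0.918 between the groups. These are correlations over probe sets, so they are descriptions without a p. Probe sets differ in how strongly they bind, so a signal is compared between arrays and not between genes. The arrays read polysome mRNA pulled down through the tag and not all RNA of the tissue. Fewer cells of a type, less RNA per cell and a smaller share in the pull-down cannot be told apart.

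Of the RPL18 genes other than the one in the transgene, AT5G27850 had signals of 13245, 10784 and 13317 in bud and 8715, 10022 and 11792 in vivo, a log2 fold of -0.29 ± 0.26 (SE) at an adjusted p of 0.674. AT2G47570 had a log2 fold of -0.18 ± 0.33 (SE) at an adjusted p of 0.866. Neither value checks the labels. The labels name the tissue as pollen grains and tubes in bud and as pollen tube in vivo. Genes listed for green tissue and for pistil and ovule were nevertheless readable in both groups. The source of these signals was not tested. The 8 measured nuclear photosynthesis genes, markers of green tissue, had summed signals of 68460 to 101400 on the bud arrays, against 58900 to 90930 in vivo, with 491 to 1049 in vitro. For the 8 measured genes of the pistil and ovule list the sums were 3338 to 4159 in bud and 3402 to 3962 in vivo. In vitro they were 326 to 793. FER gave the largest part of the sums in bud and in vivo, with means of 1811 and 1844. None of the 8 in each list was called between in vivo and bud, where 6.06% of all probe sets were. Their part in the differences below was not tested.

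The fit called 1378 probe sets (6.06%), of which 760 (3.34%) were higher and 618 (2.72%) were lower in vivo. An unadjusted p under 0.05 was found for 3760. In all 1378 the 3 bud and the 3 in vivo arrays did not overlap, against 22.0% of all probe sets. Since every call came with this, non-overlap of a called gene below is a description and no separate support. With the 9 arrays in the fit 915 (4.02%) were called, and 912 of these were also called with the 6 arrays. Among the 13513 probe sets with 1 named gene 5.86% were called, 3.33% higher and 2.53% lower. More probe sets were called higher than lower in the main setting, but the order turned with an offset of 1 (352 higher, 412 lower), without bud replicate 3 (484 and 504) and without in vivo replicate 1 (427 and 433). The count higher was also 441 without bud replicate 2 and 500 without in vivo replicate 2. Calls kept whichever array was left out numbered 717, of which 329 were higher and 388 lower. The median log2 fold was 1.92 among probe sets called higher and -2.17 among those called lower, beside -0.02 over all probe sets. Only 7 probe sets were higher by over 4 on the log2 scale, against 123 that were lower by as much, and 0 were higher by over 6, against 34. The falls also went to dim signals more often: 319 (51.6%) of the probe sets called lower had an in vivo mean under 50, while 169 (22.2%) of those called higher had a bud mean under 50. Detection calls were not used here, and the size of a fold from a dim signal depends on the offset of 16.

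**Figure D1:**
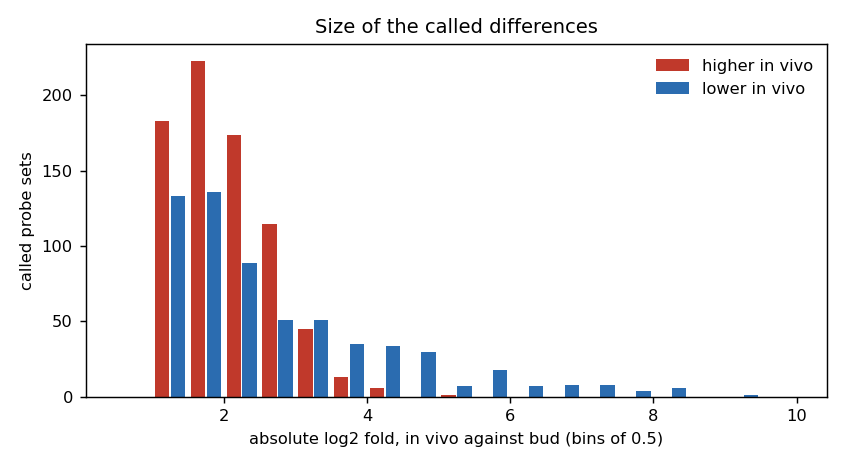
Number of probe sets called higher (red) or lower (blue) in vivo against bud, on the vertical axis, by the absolute log2 fold in bins of 0.5, on the horizontal axis. Between 1 and 3 the rises outnumber the falls in each bin, and above 4 there are 123 falls and 7 rises.

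Genes of the tapetum had lower signals in the pull-downs from pollinated flowers. Gene lists were chosen with earlier results of these data known, so the shares called in them here and below are descriptions. Of 14 listed tapetum genes, 5 were measured. Of these 5, 4 were called lower and 0 higher, beside 2.72% of all probe sets called lower. The median log2 fold of the 5 was -6.73. Their summed signal was 14610 to 23310 on the bud arrays and 521 to 1063 on the in vivo arrays, most of the latter from EMS1. A9 (AT5G07230), a classical tapetum marker, had signals of 3635, 3867 and 3844 on the bud arrays and 8.5, 10.4 and 25.6 on the in vivo arrays, a log2 fold of -6.99 ± 0.29 (SE) at an adjusted p of 6.37e-06. SHT (AT2G19070), which makes the spermidine conjugates of the pollen coat, had 2327, 4048 and 3231 in bud and 19.6, 4.5 and 19.7 in vivo, a log2 fold of -6.73 ± 0.33 (SE) at an adjusted p of 1.19e-05. All 3 bud arrays were bright for both genes and all 3 in vivo arrays were near the bottom of the scale. ATA27 (AT1G75940), a glucosidase-like gene of the anther, had 7701, 13756 and 11345 in bud and 41.3, 4.1 and 159.8 in vivo, a log2 fold of -7.50 ± 0.67 (SE) at an adjusted p of 0.000223. AMS (AT2G16910), a regulator of tapetum development, had 493, 819 and 952 in bud and 14.4, 34.3 and 30.2 in vivo, a log2 fold of -4.17 ± 0.34 (SE) at an adjusted p of 0.000125. The groups did not overlap for any of these 4, and each was called under all 14 alternative settings. Their size moved with the offset: the median of the 5 genes was -7.88 with an offset of 1 and -5.35 with an offset of 64.

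EMS1 (AT5G07280), the receptor kinase that specifies the tapetum early in anther development, stood apart from the other 4. Its signals were 457, 821 and 877 in bud and 699.5, 468 and 827 in vivo. The groups overlapped, and its log2 fold was -0.09 ± 0.34 (SE) at an adjusted p of 0.941. On the in vitro arrays the 5 genes had means of 33.0 to 122.

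**Figure D2:**
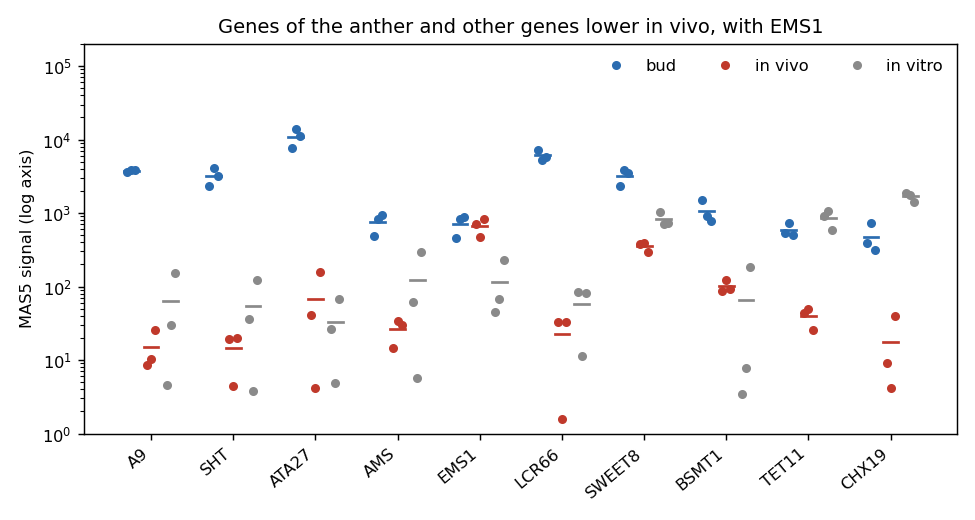
MAS5 signal on a log axis for 10 genes, with 1 point per array and a line at the mean of 3, for bud (blue), in vivo (red) and in vitro (grey). In 9 genes the bud arrays lie above the in vivo arrays, and in EMS1 they overlap. In vitro the means of TET11 and CHX19 are 855 and 1690, and those of A9 and SHT are 63.1 and 54.6.

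The 25 largest falls among named genes had log2 folds of -8.48 to -5.64. Of these, 19 had an in vivo mean under 50, and all 25 had an in vitro mean under 200. AT1G68875 led them, with signals of 19178, 15874 and 19648 in bud and 40.4, 2.8 and 107 in vivo and a log2 fold of -8.48 ± 0.58 (SE) at an adjusted p of 5.46e-05. The genes AT1G66850, AT3G52130, AT5G62080 and AT4G14815, of the lipid transfer protein type, were among them. AT1G66850 went from 64128 ± 21964 in bud to 318 ± 333 in vivo (SD, n = 3). Its in vivo arrays read 244, 28.0 and 681, so the arrays differed among themselves while all lay far under the bud arrays. AT4G14815 was tighter, with 3216, 3525 and 2926 in bud and 6.1, 7.6 and 1.7 in vivo, a log2 fold of -7.26 ± 0.26 (SE) at an adjusted p of 4.37e-06. LCR66 (AT1G61070), for a cysteine-rich secreted peptide, had 7260.2, 5204 and 5767 in bud and 32.5, 1.6 and 32.8 in vivo, a log2 fold of -7.45 ± 0.41 (SE) at an adjusted p of 1.63e-05.

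Ranked by the drop in signal rather than by fold, genes that stayed readable in vivo came in. AT2G20870 had signals of 60643, 52449 and 50744 in bud and 4478, 6020.2 and 5095 in vivo, a log2 fold of -3.40 ± 0.26 (SE) at an adjusted p of 8.81e-05. AT5G22430 had 17474, 16137 and 15369 in bud and 912, 853 and 612 in vivo, a log2 fold of -4.36 ± 0.27 (SE) at an adjusted p of 2.99e-05. AT4G04460 had 16016, 15118 and 10613 in bud and 1861, 1887 and 691 in vivo, a log2 fold of -3.33 ± 0.41 (SE) at an adjusted p of 0.00159. The arrays of the groups did not overlap for any of the 3, and their in vitro means were 407, 23.9 and 78.8.

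Some genes fell between bud and pollinated flower although they were bright on the in vitro arrays. The 12 genes with the largest falls among those with an in vitro mean above 1000 were listed after their values were seen, and their log2 folds were -3.93 to -1.57. CHX19 (AT3G17630), a cation and proton exchanger, had 389.7, 735 and 311 in bud against 9.0, 4.1 and 40.1 in vivo, and 1893, 1761 and 1415 in vitro. Its log2 fold was -3.93 ± 0.45 (SE) at an adjusted p of 0.001. XIE (AT1G54560), a class XI myosin that carries organelles along actin, had 326, 443 and 262 in bud against 59.1, 5.7 and 95.4 in vivo, and 1797, 1568 and 983 in vitro, with a log2 fold of -2.64 ± 0.55 (SE) at an adjusted p of 0.0217. Bud and in vivo arrays did not overlap for either gene, and the in vivo arrays were the lowest of the 3 groups. CML42 (AT4G20780), a calmodulin-like calcium sensor, had 1148, 984 and 603 in bud and 215, 232 and 247 in vivo, a log2 fold of -1.86 ± 0.30 (SE) at an adjusted p of 0.00674, and a mean of 2599.6 in vitro. AT4G26830 had 441, 423 and 463 in bud and 51.2, 24.5 and 39.0 in vivo, a log2 fold of -3.11 ± 0.28 (SE) at an adjusted p of 0.000231, and a mean of 8689 in vitro. AT5G53820 had 28186, 13144 and 9189.7 in bud and 1372, 951 and 1831 in vivo, a log2 fold of -3.48 ± 0.43 (SE) at an adjusted p of 0.00165, and a mean of 10986 in vitro. The call for XIE held in 10 of the 14 alternative settings, and those for the other 4 held in all 14.

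Of 18 listed genes of the sperm and generative cell, 3 were measured. Of these 3, 1 was called lower and 0 higher, beside 2.72% of all probe sets called lower. Their median log2 fold was -0.73. TET11 (AT1G18520), a tetraspanin of sperm cell membranes, had signals of 528, 738 and 504 in bud and 43.6, 48.8 and 25.9 in vivo, a log2 fold of -3.46 ± 0.29 (SE) at an adjusted p of 0.000171. All bud arrays were above all in vivo arrays. The male gamete histone gene MGH3 (AT1G19890) had 365, 293 and 128 in bud and 217, 197 and 320.3 in vivo. These overlapped, with a log2 fold of -0.01 ± 0.39 (SE) at an adjusted p of 0.996. TET12 was dim in both groups, with a log2 fold of -0.73 ± 0.39 (SE) at an adjusted p of 0.416.

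Genes of nectar and scent were among the largest rises. CYP71B31 (AT3G53300), a cytochrome P450 that oxidises the scent compound linalool, led the named genes. It had signals of 11.2, 1.3 and 28.2 in bud and 989, 1063 and 1745 in vivo, a log2 fold of 5.50 ± 0.39 (SE) at an adjusted p of 6.45e-05. It was dim on every bud array and readable on every in vivo array. SWEET9 (AT2G39060) had 633, 648 and 213 in bud and 8439.5, 8636 and 8588 in vivo, a log2 fold of 4.21 ± 0.41 (SE) at an adjusted p of 0.000381. The in vivo arrays for SWEET9 lay within 200 of each other, while bud replicate 3 was well under the other bud arrays. AT3G25810, of the terpene synthases that make scent compounds, had 543, 601 and 88.8 in bud and 3032, 4008 and 8725 in vivo, a log2 fold of 3.85 ± 0.67 (SE) at an adjusted p of 0.00944. In vivo replicate 3 was its highest array. The largest rise after CYP71B31 was that of AT3G55870, which had 4.0, 95.8 and 39.6 in bud and 984, 1189.5 and 1169 in vivo, a log2 fold of 4.50 ± 0.54 (SE) at an adjusted p of 0.0013.

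The other measured genes of the nectary and scent list moved otherwise. BSMT1 (AT3G11480), a methyltransferase that makes the volatile methyl esters of benzoate and salicylate, had 1504, 915 and 784 in bud and 86.3, 122 and 92.2 in vivo. It was lower on each in vivo array, with a log2 fold of -3.18 ± 0.32 (SE) at an adjusted p of 0.000413. JMT (AT1G19640), which methylates jasmonate, had a log2 fold of 0.43 ± 0.30 (SE) at an adjusted p of 0.555. Of the 4 genes matched to the nectary and scent list, out of 30 listed, 2 were thus higher, 1 was lower and 1 was not called. AT3G25810 appears under its locus code only. It was not matched to the list and is not among these 4, so the tally is incomplete. Over all probe sets 6.06% were called.

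UPB1 (AT2G47270), a basic helix-loop-helix factor known from roots as a regulator of peroxidase genes, had 273, 78.0 and 102 in bud and 1595, 1249.7 and 1458 in vivo, a log2 fold of 3.29 ± 0.41 (SE) at an adjusted p of 0.00165. COR47 (AT1G20440), a dehydrin of cold and drought response, had 3882, 2428 and 2168 in bud and 9201, 10271 and 11373 in vivo, a log2 fold of 1.90 ± 0.30 (SE) at an adjusted p of 0.00574. Their in vitro means were 20.6 and 119.8, where the medians of the in vitro arrays were 68.6 to 111.5. For both genes every in vivo array was above every bud array.

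Of 19 listed genes of the pollen tube wall, 6 were measured. Of these 6, 5 were called higher and 0 lower, beside 3.34% of all probe sets called higher. Their median log2 fold was 2.83. Their summed signal was 1827 to 5322 on the bud arrays, against 16650 to 36020 in vivo, with 414900 to 852900 in vitro. RALFL26 (AT3G25170), one of the RALF-like peptide genes, had 1098, 617 and 209 in bud and 4012, 4895 and 6453 in vivo, a log2 fold of 3.22 ± 0.53 (SE) at an adjusted p of 0.00677. Its neighbour RALFL25 (AT3G25165) had 3167, 2266 and 1124 in bud and 8322, 14597 and 15284 in vivo, a log2 fold of 2.60 ± 0.42 (SE) at an adjusted p of 0.00641. Bud replicate 3 was the lowest bud array for both and in vivo replicate 3 the highest in vivo array. LRX9 (AT1G49490) had 348, 393 and 209 in bud and 2325, 1931 and 6903 in vivo, a log2 fold of 3.29 ± 0.48 (SE) at an adjusted p of 0.00401. LRX11 (AT4G33970) had 139, 47.3 and 53.3 in bud and 286, 243 and 785 in vivo, a log2 fold of 2.17 ± 0.50 (SE) at an adjusted p of 0.034. LRX8 (AT3G19020) rose by 3.05 ± 0.48 (SE). All 3 were clear of bud on every in vivo array and highest on replicate 3. LRX10 (AT2G15880) had 337, 174 and 70.1 in bud and 451, 406 and 2184 in vivo, a log2 fold of 2.08 ± 0.69 (SE) at an adjusted p of 0.141. All its in vivo arrays were above its bud arrays, but replicate 3 alone stood far above the rest and the gene was not called. The 5 calls of this list fell to 4 with an offset of 1. They were also 4 without bud replicate 2 or 3, or in vivo replicate 1 or 3. The call for LRX11 held in 9 of the 14 alternative settings.

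Of 30 listed receptors and signalling genes of the pollen tube, 4 were measured. Of these 4, 3 were called higher and 0 lower, beside 3.34% of all probe sets called higher. Their median log2 fold was 2.08. BUPS1 (AT4G39110) had 399, 301 and 223 in bud and 1645, 1184 and 2487 in vivo, a log2 fold of 2.44 ± 0.35 (SE) at an adjusted p of 0.00359. ANX2 (AT5G28680), its partner in guarding tube integrity, had 185, 71.7 and 119 in bud and 689.5, 485 and 904 in vivo, a log2 fold of 2.36 ± 0.37 (SE) at an adjusted p of 0.00571. MDIS1 (AT5G45840), a receptor for attractants released near the ovule, had 73.7, 82.4 and 68.4 in bud and 301, 148 and 585 in vivo, a log2 fold of 1.79 ± 0.43 (SE) at an adjusted p of 0.0433. For all 3 genes the highest array was in vivo replicate 3. ANX1 (AT3G04690) had 198, 127 and 109 in bud and 304, 267 and 873 in vivo, which did not overlap, but its log2 fold of 1.46 ± 0.45 (SE) at an adjusted p of 0.109 was not called. The count of 3 fell to 2 with an offset of 1 and with each array other than in vivo replicate 2 left out, and it was 4 with dim probe sets filtered out.

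Among the 25 largest rises by fold and the 12 by signal were other genes bright in culture. AT1G30710, of the berberine bridge enzyme type, had 112, 156 and 56.1 in bud and 1556, 1846 and 3078 in vivo, a log2 fold of 4.16 ± 0.39 (SE) at an adjusted p of 0.000317. AT1G74010, of the strictosidine synthase type, had 289.6, 241 and 219 in bud and 2474, 2764 and 5518 in vivo, a log2 fold of 3.67 ± 0.35 (SE) at an adjusted p of 0.00031. Both were clear of bud on every in vivo array, and their in vitro means were 31795 and 21371. AT3G26110 had the largest rise in signal, with 7119, 4213 and 1469.5 in bud and 13366, 31364 and 45179 in vivo and a log2 fold of 2.91 ± 0.61 (SE) at an adjusted p of 0.0229. AT5G47000 had 3244, 3508 and 1580.4 in bud and 11975, 18117 and 25133 in vivo, a log2 fold of 2.74 ± 0.40 (SE) at an adjusted p of 0.00383. For both, in vivo replicate 3 was the highest array and bud replicate 3 the lowest, and 9 of the 12 rises by signal had a higher mean in vitro than in vivo.

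scpl38 (AT2G05850), for a serine carboxypeptidase-like enzyme, had 180.5, 235 and 91.5 in bud and 1855, 1953 and 2583 in vivo, a log2 fold of 3.61 ± 0.35 (SE) at an adjusted p of 0.000382, and a mean of 113100.0 in vitro. PLIM2a (AT2G45800), a protein that bundles actin filaments, had 2968, 2780.0 and 995 in bud and 9158, 11109 and 18067 in vivo, a log2 fold of 2.59 ± 0.46 (SE) at an adjusted p of 0.00965. PIPK11 (AT1G01460), a phosphatidylinositol phosphate kinase of pollen, had 45.7, 59.1 and 4.1 in bud and 390.4, 271 and 852 in vivo, a log2 fold of 3.36 ± 0.56 (SE) at an adjusted p of 0.00723. None of the 3 overlapped between the groups. SBT3.12 (AT4G21326), a subtilisin-like protease, had a log2 fold of 2.81 ± 0.36 (SE) at an adjusted p of 0.002 and a mean of 17687 in vitro. It was the 1 called member of 8 subtilases (12.5%, beside 6.06% of all probe sets). Of the 10 measured transcription factors of the vegetative cell, 1 was called higher, beside 3.34% of all probe sets. It was BZIP34 (AT2G42380), with 4.0, 30.3 and 39.2 in bud and 98.2, 115 and 104 in vivo. Its log2 fold was 1.71 ± 0.39 (SE) at an adjusted p of 0.0321. The other 9 were not called. AGL18, AGL66, AGL65, AGL30 and AGL104, MADS-box factors of pollen, had log2 folds of 0.82, 0.66, 0.32, 0.17 and 0.09.

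**Figure D3:**
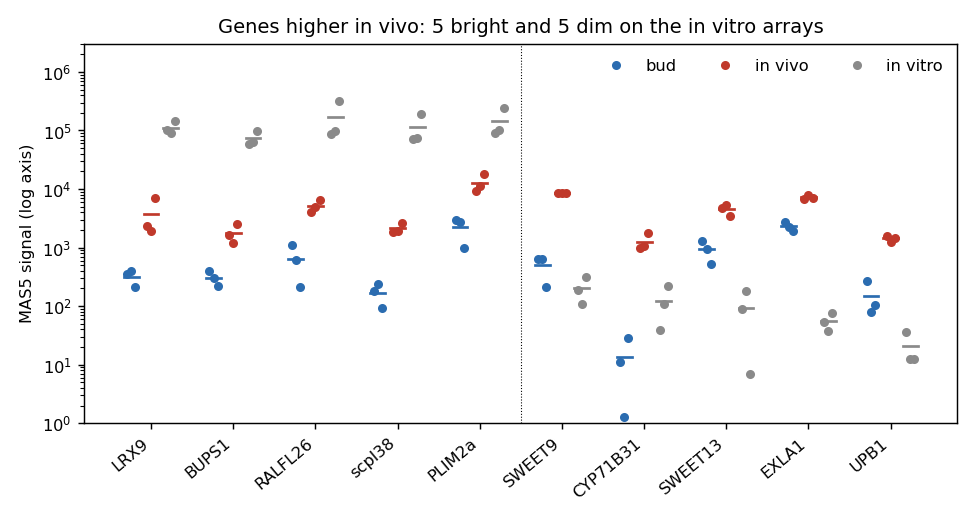
MAS5 signal on a log axis for 10 genes called higher in vivo, with 1 point per array and a line at the mean of 3, for bud (blue), in vivo (red) and in vitro (grey). Left of the dotted line LRX9, BUPS1, RALFL26, scpl38 and PLIM2a are brightest in vitro, and right of it SWEET9, CYP71B31, SWEET13, EXLA1 and UPB1 are brightest in vivo.

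The probe sets called higher ranged widely in their level on the in vitro arrays. Of the 25 largest rises among named genes, 16 had a higher mean in vitro than in vivo and 7 had a lower mean in vitro than in bud. Over all 760, the in vitro level lay above the in vivo level by over 1 on the log2 scale for 327 (43.0%), below it by over 1 for 342 (45.0%) and between for 91 (12.0%). The shares over all probe sets were 22.3%, 40.6% and 37.1%, so the share of rises below, 45.0%, lay near that of all probe sets. These shares use the in vivo arrays on both sides and are given as a description. In 4 equal bins of the in vitro level, which uses none of the 6 arrays, 2.43%, 2.55%, 2.06% and 6.33% of probe sets were called higher from the dimmest to the brightest bin, and 3.15%, 2.97%, 2.88% and 1.86% were called lower.

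The calls in the brightest of these bins lay mostly at its top. In 20 equal bins of in vitro level, a split chosen after the coarser one was seen, the brightest held 1138 probe sets, of which 301 (26.4%) were called higher and 11 (0.967%) lower. These 301 were 39.6% of all rises, and the other 19 bins had 0.791% to 2.73% called higher. The median log2 fold of the 1138 was 0.61, beside -0.02 over all probe sets. The median signal of the 301 was 323, 272 and 165 on the bud arrays, 1061, 879 and 1719 on the in vivo arrays and 26140 to 27550 on the in vitro arrays. The choice of these probe sets fixes that they were above bud in vivo and bright in vitro, so these medians only describe them.

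Single arrays weighed on these 301. In vivo replicate 3 was the highest in vivo array for 266 of them, and bud replicate 3 was the highest bud array for 14. Without in vivo replicate 3 the count was 187, without bud replicate 3 it was 189, without bud replicate 2 185 and without in vivo replicate 1 195, while it was 262 without bud replicate 1 and 247 without in vivo replicate 2. It was 122 with an offset of 1. Among the other 459 rises, the highest in vivo array was replicate 1 for 144, replicate 2 for 183 and replicate 3 for 132. Their median signal was 120.5, 109 and 93.7 in bud, 471, 467 and 395 in vivo and 45.0 to 75.1 in vitro.

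**Figure D4:**
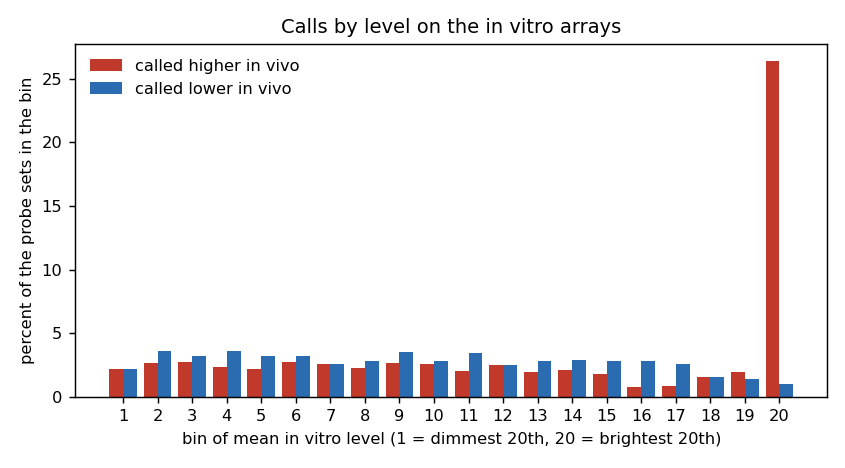
Percent of probe sets called higher (red) or lower (blue) in vivo against bud, on the vertical axis, in 20 bins of mean level on the in vitro arrays, on the horizontal axis. The brightest bin has 26.4% called higher and 0.967% lower, and every other bin has under 5% in either direction.

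Of the genes higher in vivo and with an in vitro mean under 200, the 20 with the largest in vivo signal were listed after their values were seen, and their log2 folds were 1.09 to 3.85. AT5G66590 had 5493, 3296 and 2514 in bud and 13740.0, 22674 and 13703 in vivo, a log2 fold of 2.18 ± 0.36 (SE) at an adjusted p of 0.00728. AT5G45950 had 2701, 3092 and 2819 in bud and 11632, 19018 and 13115 in vivo, a log2 fold of 2.31 ± 0.28 (SE) at an adjusted p of 0.00141. AT1G70720 had 798, 1099.9 and 629 in bud and 4939, 5329 and 7034 in vivo, a log2 fold of 2.77 ± 0.30 (SE) at an adjusted p of 0.000714. In all 3 the in vivo arrays were clear of the bud arrays, and replicate 2 was the highest for the first pair.

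Of the gene families examined, the SWEET sugar carriers had the largest share of members called, in both directions. SWEET proteins let sugars pass membranes along their gradient. Of 16 measured members, 4 were called higher and 5 lower (56.2%), beside 6.06% of all probe sets, and the median log2 fold was 0.38, or -0.06 without bud replicate 1. Beside SWEET9, the rises were SWEET13 (AT5G50800) and SWEET14 (AT4G25010), which also carry gibberellin in anthers, and SWEET4 (AT3G28007). SWEET13 had 1318, 957 and 529.6 in bud and 4799, 5435 and 3468 in vivo, a log2 fold of 2.34 ± 0.37 (SE) at an adjusted p of 0.00585. SWEET14 had 858, 1222 and 597 in bud and 3390.4, 4301 and 2234 in vivo, a log2 fold of 1.88 ± 0.36 (SE) at an adjusted p of 0.0144. SWEET4 had 1554, 1828 and 1294 in bud and 4198, 5023 and 4192 in vivo, a log2 fold of 1.52 ± 0.26 (SE) at an adjusted p of 0.00901. The groups did not overlap for any of the 3, and all 4 carriers that rose had in vitro means of 15.1 to 202.

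The falls were SWEET8 (AT5G40260), needed for the pollen wall, SWEET7 (AT4G10850), SWEET3 (AT5G53190), AtVEX1 (AT5G62850), a carrier of the vegetative cell also known as SWEET5, and SWEET17 (AT4G15920), a fructose carrier of the vacuole. SWEET8 had 2344, 3846 and 3501 in bud and 376, 389.8 and 297 in vivo, a log2 fold of -3.11 ± 0.29 (SE) at an adjusted p of 0.000289. SWEET7 had 1045, 837 and 1096 in bud and 127, 137 and 109 in vivo, a log2 fold of -2.84 ± 0.26 (SE) at an adjusted p of 0.000253. AtVEX1 had 468, 753 and 371 in bud and 79.9, 70.8 and 115 in vivo, a log2 fold of -2.35 ± 0.33 (SE) at an adjusted p of 0.00323. Each in vivo array was under each bud array. SWEET3 had a log2 fold of -2.11 ± 0.27 (SE) at an adjusted p of 0.00199 and SWEET17 one of -1.19 ± 0.29 (SE) at an adjusted p of 0.0467. AtVEX1 and SWEET8 were readable in vitro, with means of 859 and 829. The other 7 carriers, SWEET1, SWEET2, SWEET6, SWEET10, SWEET11, SWEET16 and SAG29 (SWEET15), had log2 folds of 0.00 to 1.15 and were not called.

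Families that loosen or rebuild the cell wall held further rises. Of 19 expansins, which loosen walls, 5 were called higher and 0 lower (26.3%), beside 6.06% of all probe sets called. The median log2 fold was 0.10, or -0.04 without bud replicate 1. Leaving out bud replicate 3 gave 3 calls, as did an offset of 1 and the fit of 9 arrays. EXLA1 (AT3G45970) had 2740.0, 2258 and 1927 in bud and 6701, 7865 and 6955 in vivo, a log2 fold of 1.64 ± 0.26 (SE) at an adjusted p of 0.00611. EXPA8 (AT2G40610) had 2551, 3094 and 1779 in bud and 6649, 10775 and 6604 in vivo, a log2 fold of 1.69 ± 0.32 (SE) at an adjusted p of 0.0152. EXPB5 (AT3G60570) had 937, 631 and 529 in bud and 2801, 3417 and 5139 in vivo, a log2 fold of 2.40 ± 0.33 (SE) at an adjusted p of 0.00303. In none of these did the groups overlap, but their in vitro means were 55.9, 32.2 and 62645, so only EXPB5 was bright in culture. EXLA3, the neighbour of EXLA1, rose by 2.68 ± 0.33 (SE) from a bud mean of 16.9 to 195, and EXPA24 by 1.47 ± 0.33 (SE).

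Of 10 xyloglucan endotransglucosylases, which cut and rejoin hemicellulose, 2 were called higher and 0 lower (20.0%), beside 6.06% of all probe sets called. Their median was 0.38. XTH19 (AT4G30290) had 149, 212 and 246 in bud and 1095, 762 and 923 in vivo, a log2 fold of 2.12 ± 0.29 (SE) at an adjusted p of 0.00279, and XTH33 had one of 1.61 ± 0.33 (SE) at an adjusted p of 0.0216. Of 37 beta-glucosidases and GH9 endoglucanases, 4 were higher and 3 lower (18.9%, beside the same 6.06%), with a median of 0.23. GH9A4 (AT3G43860), a cellulose-cutting endoglucanase by family, had 2018, 1322 and 586 in bud and 6364, 8261 and 12726 in vivo, a log2 fold of 2.89 ± 0.46 (SE) at an adjusted p of 0.00598. GH9B11 (AT2G44560) had 509, 647 and 148 in bud and 3028, 4214 and 8544 in vivo, a log2 fold of 3.64 ± 0.56 (SE) at an adjusted p of 0.00516. Both were clear of bud on every in vivo array. The other rises, GH9B17 and GH9C3, had log2 folds of 1.15 and 1.48, and the falls beside ATA27 were BGLU41 at -1.58 and GH9B18 at -1.32.

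Secreted peptide and protease families were mixed. Of 11 RALF-like peptide genes, 4 were higher and 0 lower (36.4%, beside 6.06% of all probe sets), with a median log2 fold of 0.29. Beside RALFL25 and RALFL26 these were RALFL18 (AT2G33130), with 214, 124 and 132 in bud and 448, 641 and 417 in vivo and a log2 fold of 1.59 ± 0.31 (SE) at an adjusted p of 0.0155, and RALFL28 (AT4G11510), with a log2 fold of 1.69 ± 0.33 (SE) at an adjusted p of 0.0168. RALFL18 and RALFL28 had in vitro means of 189 and 104, unlike the bright RALFL25 and RALFL26. The count was 2 with an offset of 1, and also when bud replicate 2 or in vivo replicate 1 or 2 was left out. Of 15 LCR, defensin and thionin peptides, 3 were higher and 1, LCR66, was lower (26.7%, beside 6.06%), with a median of 0.38. LCR80 (AT5G38330) had 11.7, 43.5 and 50.5 in bud and 643, 694 and 197 in vivo, a log2 fold of 3.27 ± 0.52 (SE) at an adjusted p of 0.00575. LCR72 (AT2G02140) had 9151, 5053 and 1938 in bud and 12806, 29187 and 38843 in vivo, a log2 fold of 2.44 ± 0.59 (SE) at an adjusted p of 0.0423. It was called in 7 of 14 alternative settings, and LCR24 rose by 1.22 ± 0.26 (SE).

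Of 29 serine carboxypeptidase-like genes, 4 were higher and 3 lower (24.1%, beside 6.06% of all probe sets), with a median of 0.07. scpl35 (AT5G08260) had 950.0, 1352 and 941 in bud and 3340.3, 3413 and 2325 in vivo, a log2 fold of 1.47 ± 0.29 (SE) at an adjusted p of 0.017. scpl29 (AT4G30810) had 2569, 3963 and 3791 in bud and 1137, 1313 and 1685 in vivo, a log2 fold of -1.30 ± 0.29 (SE) at an adjusted p of 0.032. In each the arrays of the groups were apart. scpl40 and scpl41 rose by 2.07 and 1.06 on the log2 scale, and SCPL34 and scpl25 had log2 folds of -1.16 and -1.14.

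Of 24 cytochrome P450 genes, 3 were called higher and 0 lower (12.5%, beside 6.06% of all probe sets), and all 3 belong to the CYP71B subfamily, as do 19 of the 24 listed. CYP71B38 (AT3G44250) had 2.3, 46.3 and 30.6 in bud and 306, 289.6 and 308 in vivo, a log2 fold of 3.08 ± 0.43 (SE) at an adjusted p of 0.00305, and CYP71B27 had one of 2.56 ± 0.49 (SE) at an adjusted p of 0.0155. Of 51 UDP-glycosyltransferases, 1 was higher and 3 were lower (7.84%), a share near the 6.06% of all probe sets, with a median of -0.15. UGT85A3 (AT1G22380) had 171, 159 and 143 in bud and 1188, 1115 and 495 in vivo, a log2 fold of 2.35 ± 0.36 (SE) at an adjusted p of 0.00498. AT5G54010, the pollen flavonol glycosyltransferase UGT79B6, had 163, 224 and 248 in bud and 5.6, 2.3 and 38.6 in vivo, a log2 fold of -3.01 ± 0.42 (SE) at an adjusted p of 0.00308. UGT78D3 and UGT84A1, which add sugars to flavonols and hydroxycinnamates, had log2 folds of -2.37 and -1.71. Of 13 glutathione transferases, GSTU18 at 1.59 and GSTU26 at 1.59 were higher and GSTU20 at -1.46 was lower (23.1%, beside 6.06%). Their median was -0.02.

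Of the MADS-box, bHLH and WRKY families, only the WRKY family held a called member (14.3%, beside 6.06% of all probe sets). None of 41 MADS-box genes was called, with log2 folds of -0.85 to 1.42 and a median of 0.09. None of the 7 genes listed under a bHLH symbol was called either. UPB1, the basic helix-loop-helix factor called higher above, has another symbol and is not among the 7. Counts in families of 7 genes say little. Of 7 WRKY factors 1 was called: WRKY42 (AT4G04450) had 131, 195 and 187 in bud and 3.0, 7.6 and 33.8 in vivo, a log2 fold of -2.71 ± 0.38 (SE) at an adjusted p of 0.00333. Of 8 genes of ageing and abscission, ATG8H (AT3G06420), an autophagy protein, had 799, 312 and 247 in bud and 2473, 1709 and 991 in vivo, a log2 fold of 1.98 ± 0.48 (SE) at an adjusted p of 0.0441. Its groups were apart, and the other 7 members were not called. Of 6 peroxidases 1 was lower, AT5G66390, which is peroxidase 72 in the gene table, with 62.5, 42.0 and 56.3 in bud and 4.0, 1.9 and 2.0 in vivo and a log2 fold of -1.89 ± 0.26 (SE) at an adjusted p of 0.00268.

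The plastid-encoded genes were grouped after their values were seen. Of 69 measured, 4 were called higher and 0 lower (5.80%), beside 6.06% of all probe sets called, while 64 had a positive log2 fold and the median was 1.12. rbcL, for the large subunit of Rubisco, had 625, 508 and 509 in bud and 1546, 1908 and 1853 in vivo, a log2 fold of 1.66 ± 0.26 (SE) at an adjusted p of 0.00505. psbC, for an inner antenna protein of photosystem II, had 211, 292 and 215 in bud and 683, 1290.1 and 747 in vivo, a log2 fold of 1.81 ± 0.32 (SE) at an adjusted p of 0.00964. atpF, of the ATP synthase, and rpl16, of the plastid ribosome, had log2 folds of 2.02 and 1.49. Each of these 4 was apart between the groups.

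Over the 69 genes the median log2 signal was 7.83, 8.03 and 9.38 on the bud arrays and 9.42, 9.64 and 10.34 on the in vivo arrays, so bud replicate 3 lay close to the lowest in vivo array. Their summed signal overlapped, with 141000, 118100 and 150000 in bud and 152000, 219500 and 128400 in vivo. The number called was 2 to 15 over the alternative settings, with 15 under the replicate block, 13 after the filter on dim probe sets and 2 where the 9 arrays or an offset of 1 were used. It was also 2 without bud replicate 1, bud replicate 2 or in vivo replicate 2, 8 without in vivo replicate 3 and 9 without bud replicate 3. The nuclear photosynthesis genes had a median log2 fold of -0.17 and 1 of 8 was positive. LHCB4.1 (AT5G01530), an antenna protein of photosystem II, had 10995, 12747 and 13088 in bud and 10133, 13982 and 10208 in vivo, a log2 fold of -0.11 ± 0.26 (SE) at an adjusted p of 0.899. How plastid transcripts, which are not bound by cytosolic ribosomes, came to be in the pull-down was not tested.

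**Figure D5:**
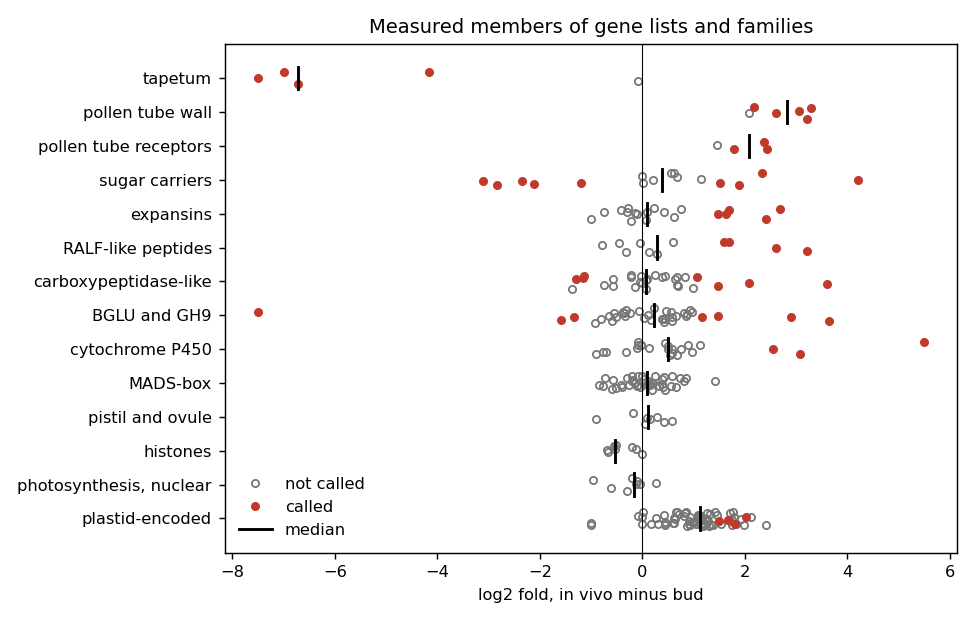
Log2 fold in vivo minus bud (horizontal axis) of every measured member of 14 gene lists and families (rows), filled red where called, open where not, with a bar at the median. The tapetum row has a median of -6.73, the pollen tube wall row one of 2.83 and the plastid-encoded row one of 1.12, while the rows of MADS-box, pistil and ovule, histone and nuclear photosynthesis genes hold no called member.

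Several lists of 4 to 8 measured genes held no called member, and with 6.06% of all probe sets called, a count of 0 in lists of that size says little. FER (AT3G51550), a receptor kinase that senses RALF peptides, is on the pistil and ovule list. It had 1319.8, 1914 and 2199 in bud and 2157, 1734 and 1642 in vivo, which overlapped. Its log2 fold was 0.05 ± 0.29 (SE) at an adjusted p of 0.964. The other pistil and ovule genes had log2 folds of -0.90 (SPT) to 0.57 (NGA3). None of 8 histone genes was called, though all 8 log2 folds were under 0, from -0.69 to -0.01. None of 8 auxin and ethylene genes, 7 genes of protein folding in the endoplasmic reticulum, 7 wound and touch genes, 4 cell cycle genes and 4 floral identity genes was called, with medians of 0.19, -0.19, -0.25, 0.04 and 0.20. CRT1b (AT1G09210), a calreticulin that helps glycoproteins fold, had 6910.0, 7951 and 8166 in bud and 2961, 3933 and 4917 in vivo. These did not overlap, but its log2 fold of -0.99 ± 0.28 (SE) at an adjusted p of 0.0831 was not called.

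A missed threshold does not show that a level was the same, and the intervals give the bound. The 95% interval of the log2 fold lay within -1 to 1 for 9447 probe sets (41.5%) and within -0.5 to 0.5 for 0. Among the brightest named genes within -1 to 1 were ATPC1 (AT4G04640), a subunit of the chloroplast ATP synthase, with 10479, 12676 and 16226 in bud and 8439, 16187 and 12385 in vivo, and AT5G64400, with 12243, 10597 and 9345 in bud and 9278, 11316 and 12841 in vivo. Their groups overlapped, with log2 folds of -0.12 and 0.05.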

How the data were processed

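The authors deposited intensity values on a linear scale, which the submitters' processing notes name as MAS5 without a version. Leaving out 64 control probe sets, 22746 remained for testing. Of these, 13513 had 1 gene in the platform's gene table and 503 had several. Gene names came from that table and from RefSeq TAIR10.1; the usual names of A9, LRX8 to LRX11, BUPS1 and MDIS1 were added by locus, as were family names for a few locus codes.

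The model was limma's (3.58.1, R 4.3.3), with 1 mean per group, on log2(signal + 16) of the 6 arrays. Its two-sided p-values were adjusted over the whole table by Benjamini-Hochberg. The fit uses the 6 arrays because the in vitro arrays spread more (median SD of 0.601 on the log2 scale, against 0.363 in bud and 0.334 in vivo). Each adjusted p printed is from this test. An exact permutation test of 3 against 3 cannot go below p = 0.1. The number of arrays limits the precision. The 14 alternatives were the 9 arrays in the fit, offsets of 1 and 64, quantile scaling, equal medians, a filter at a mean signal of 100, a variance trend, a replicate block and each of the 6 arrays left out.

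Named genes are the 25 largest rises and falls in log2 fold among called, non-overlapping probe sets with 1 gene and a mean above the overall median, the 12 largest in signal, and members of lists and families. Brightest genes with a narrow interval used limits of -1 to 1, since -0.5 to 0.5 left none. Families were matched by symbol and synonym in the gene table, so they are incomplete, and mismatched genes were taken out by name. Members and lists were chosen with earlier results of these data known. Of the lists, pollen coat, endothecium and jasmonate genes, with 19, 19 and 30 listed, had 0 measured members. Those for exine (SWEET8) and heat stress, with 24 and 17 listed, had 1. A listed gene without a match in the gene table was not examined here, also where the array may carry it. The flavonoid list had 1 called lower of 5, the ion transport list 1 of 3 and the cytoskeleton list 1 higher and 1 lower of 6. The hypoxia list had 0 of 2, nuclear photosystem genes 0 of 9 and calmodulin-like genes 1 lower of 8. Over all probe sets 6.06% were called. The labels give no pairing by replicate number. Deviations from the group means correlated at 0, 0.00 and 0.07 between same-numbered arrays and at -0.075 to 0.065 between others. Such correlations over all probe sets cannot exclude a pairing, so the replicate block is given as an alternative. No sequences were used here, so the planned description of sequence features was not run. Figures were drawn with matplotlib 3.10.9.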

Additional observations from a re-analysis of the deposited data

How the results depend on the processing

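The count of 760 rises was 489 with the 9 arrays in the fit, 352 with an offset of 1 and 427 to 644 with 1 array left out, while the 618 falls were 430 to 541 with 1 array left out. The total of 1378 was 915 with the 9 arrays, 764 with an offset of 1 and 860 to 1175 with 1 array left out. The rises numbered 427 without in vivo replicate 1, 441 without bud replicate 2, 484 without bud replicate 3 and 500 without in vivo replicate 2, and the total was 860 without in vivo replicate 1 and 871 without bud replicate 2. With an offset of 1, 46.1% of calls were rises, against 55.2%. The 301 rises in the brightest 20th by in vitro level were 122 with an offset of 1 and 185 to 262 with 1 array left out. The replicate block gave 1309 calls (718 higher, 591 lower), 260 rises in that 20th and lost 12 of 182 named calls; the numbers give no pairing in the labels. Scaling by quantiles or to equal medians gave 1391 and 1389 calls. Of the 182 named calls, 103 held in all 14 alternatives and 0 reversed; an offset of 1 lost 68, the 9 arrays 39 and single arrays 29 to 48. The cause was not tested. Dim signals limit the folds of genes that fell to the bottom of the scale.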

Other observations

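Genes that lie next to each other in the TAIR10.1 gene table were compared. Of 5813 neighbouring pairs of protein-coding genes with both members measured, both were called higher in 12, both lower in 14 and the members opposed in 14; of single genes, 3.38% were higher and 2.56% lower. Of the 14 pairs both lower, 6 came from 1 run of genes. It was AT1G23560, AT1G23570, AT1G23580, AT1G23590, AT1G23600, AT1G23610 and AT1G23640, which are neighbours and were all lower in vivo. AT1G23600 had signals of 755, 653 and 562 in bud and 6.8, 6.2 and 5.0 in vivo, a log2 fold of -4.92 ± 0.25 (SE) at an adjusted p of 1.4e-05. AT1G23570 had 1253, 942 and 323 in bud and 2.9, 49.5 and 60.3 in vivo, a log2 fold of -4.03 ± 0.62 (SE) at an adjusted p of 0.00513. The other 5 had log2 folds of -1.92 to -3.41. Whether these probe sets read near-identical copies of one another was not tested.

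AT5G07420 and AT5G07430, another pair of neighbours, were both higher in vivo. AT5G07420 had 3749.6, 3629.7 and 1628 in bud and 6353, 10306 and 22442 in vivo, a log2 fold of 2.01 ± 0.50 (SE) at an adjusted p of 0.0483, and AT5G07430 had one of 1.75 ± 0.41 (SE) at an adjusted p of 0.0369. AT5G61710 and AT5G61720 were both higher too, with log2 folds of 3.18 and 1.88. WRKY42 and its neighbour AT4G04460 were both lower.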
